A study of Mus musculus with 82 samples.

Results

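MA/MyJ, an inbred laboratory mouse strain, was compared with other inbred strains in naive CD4 T cells. Its members were the 2 arrays with MA/MyJ as the genetic background label, out of 82 arrays in 40 strain groups. They were set against 35 other groups of strains derived from Mus musculus domesticus, which held 72 arrays and entered as strain means. These were 129S1/SvImJ, A/J, AKR/J, BALB/cByJ, BPL/1J, BTBR T+ tf/J, C3H/HeJ, C57BL/10J, C57BL/6J, C57BLKS/J, C57BR-titled, C57L/J, CBA/CaJ, CBA/J, CE/J, DBA2-titled, DDY/JclSidSeyFrkJ, FVB/NJ, KK.Cg-Ay/J, LGJ, LP/J, MRL/MpJ, NOD/ShiLtJ, NON/ShiLtJ, NOR/LtJ, NZB/BINJ, NZW/LacJ, P/J, PL/J, RIIIS/J, SEA/GnJ, SJL/J, SM/J, SWR/J and WSB/EiJ. WSB/EiJ is wild-derived and the others are classical laboratory strains. For 2 groups the array title (C57BR, DBA2) names another strain than the background label (CBA/CaJ, DBA/1LacJ), and they were kept apart and named by title. JF1/Ms, MSM/Ms, PWD/PHJ and CAST/EiJ (8 arrays in all) derive from other subspecies and are given only as values. All mice were male, no label names a treatment, and the labels give an age of 6 weeks where the series design gives 5 weeks. Spleen cells were sorted for CD3, CD4 and CD62L and against a panel of markers that included CD8, CD11c, CD25, CD49b, Gr1 and Ter119. Each array was a pool of 2 to 3 mice of 1 strain, so 2 pools stand for MA/MyJ and a strain cannot be told apart from anything else its pools shared. The series design also names bone marrow granulocytes, whereas every label gives sorted spleen T cells.

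Naive CD4 T cells circulate through spleen and lymph nodes without having met their antigen, and keep a low, quiescent metabolism until they are activated. An inbred strain carries 1 fixed allele at nearly every gene, and the classical strains descend from a small pool of founders whose chromosome segments recur in several of them. A transcript level that is unusual in one strain can therefore be private to it or recur in other strains, alone or with neighbouring genes.

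The arrays, Affymetrix ST1.0, read each transcript with many short probes that are combined into 1 intensity per probe set. Whether the probes match the MA/MyJ sequence was not checked. A reading altered by a mismatch therefore cannot be told apart from a different transcript level. The MA/MyJ arrays had median intensities of 104 and 109, within the range of 102 to 142 over all arrays. They correlated at 0.996 over 24922 probe sets, against 0.984 to 0.997 within strains. Markers of the sorted cells were high, with Cd4 at intensities of 5225 and 5087 in MA/MyJ and 2786 to 5668 in the other strains, and Cd3e at 7444 and 7450 in MA/MyJ and 5481 to 8145 in the others. The regulatory T cell factor Foxp3 stood at 577 and 599 in MA/MyJ, against 304 to 926 in the other strains. Markers of CD8 T cells stood inside the range of the other strains, with Cd8b1 at 586 and 595 in MA/MyJ against 400 to 897, although Cd8a, at 63.4 and 69.3, was below every other strain mean (70.3 to 124). The mean log2 intensity of 17 B cell markers was 5.60 and 5.69 in MA/MyJ, against 5.69 to 7.09 in the other strains, and no B cell, natural killer, neutrophil, dendritic, erythroid or platelet marker passed either limma test defined next (unadjusted array-level p under 0.05 in 0 to 1 higher and 0 to 2 lower per list). One array each of PL/J and A/J, among the other strains, was high in B cell markers, and without both arrays 13 probe sets passed the strain-level test and 1923 the array-level test.

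Differences are given as log2 of the MA/MyJ mean over the mean of the 35 other strains, ± the standard error (SE) of the test whose p is given. In the strain-level test the strain was the unit, so MA/MyJ had to lie outside the spread between strains. In the array-level test it had to differ from the average strain by more than the spread between pools of 1 strain. Both used limma with Benjamini-Hochberg adjustment over all probe sets and a threshold of 0.05. At strain level, 14 of 24922 probe sets (0.0562%) passed, 11 higher (0.0441%) and 3 lower (0.012%) in MA/MyJ. At array level, 1581 (6.34%) passed, 1137 higher (4.56%) and 444 lower (1.78%). Both MA/MyJ arrays lay on the same side for all 1581, which selection by their mean largely fixes in advance. A difference of at least 2-fold was held by 95 of these (0.381%), 66 higher (0.265%) and 29 lower (0.116%). Both MA/MyJ arrays lay above every other strain mean for 418 probe sets (1.68%) and below every one for 877 (3.52%), and beyond all 72 other arrays for 85 (0.341%) above and 48 (0.193%) below. The share of higher calls depended on scaling. At array level it was 71.9%, but 57.4% after quantile normalization and 84.2% with arrays centred at their medians. At strain level it was 78.6%, 52.4% and 95.5% in the same order. Run on each of the other 35 strains in turn, the strain-level test called 0 to 1360 probe sets (median 10) and the array-level test 344 to 5401 (median 1009), and 13 and 10 strains had more calls than MA/MyJ. Leaving out MA/MyJ array 2 left 1207 calls at strain level (241 higher, 966 lower) and 745 at array level. Leaving out MA/MyJ array 1 left 16 and 297.

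**Figure D1:**
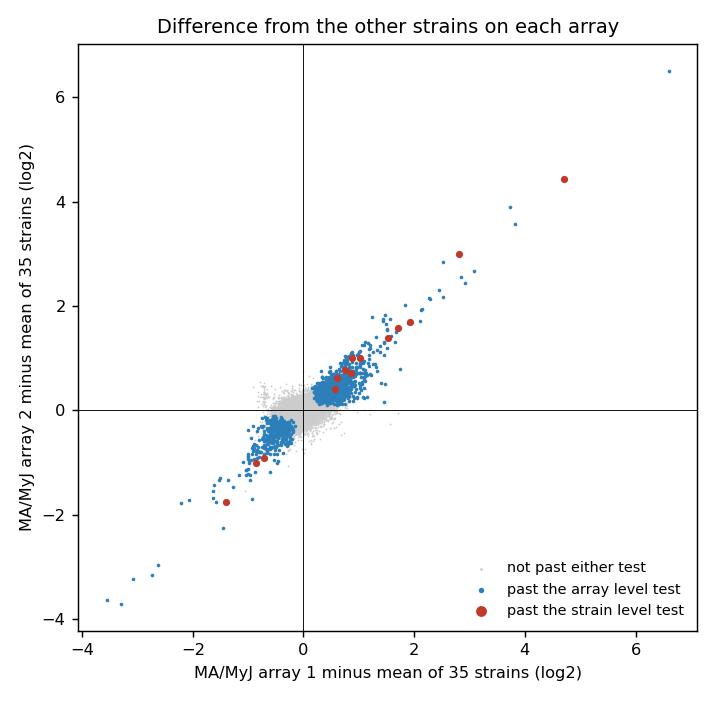
Difference of MA/MyJ array 1 (horizontal) and array 2 (vertical) from the mean of the 35 other strains, in log2 units, for every probe set, coloured by the test passed. The differences of the 2 arrays correlated at 0.714 over all probe sets, and the point at the upper right is Aass.

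The largest difference in MA/MyJ was in Aass, on chromosome 6, which encodes the enzyme that opens the main lysine breakdown pathway of mitochondria. Its intensity was 4749 and 4439 on the MA/MyJ arrays, against a lowest strain mean of 24.4 in C3H/HeJ, a median of 28.4 and a highest of 4195 in C57L/J. The difference was 6.56 ± 0.14 (adjusted p = 7.19e-39 at array level). Both MA/MyJ arrays lay above all 72 other arrays, the highest of which read 4260. High levels also occurred in C57L/J at 4131 and 4260, in C57BR-titled at 3831 and 4158, in LGJ at 3643 and 3531, and in SJL/J at 2157 and 1515. The other 31 groups had means of 37.0 or less, so the strains fell into a high and a low set with an empty range between them. With 4 other strains in the high set, Aass did not pass the strain-level test (adjusted p = 0.47). The 4 strains from other subspecies had low levels, with means of 23.9 in PWD/PHJ to 30.8 in CAST/EiJ.

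Second in size was Ryk, on chromosome 9, a receptor for Wnt ligands that resembles a tyrosine kinase. It had intensities of 1162 and 958 in MA/MyJ, against a strain median of 40.3 and a range of 34.7 to 711. The difference of 4.57 passed both tests (SE 0.69 and adjusted p = 0.000356 at strain level, SE 0.14 and adjusted p = 3.63e-32 at array level). AKR/J, with arrays at 704 and 718, was the only one of the 35 on the MA/MyJ side of the midpoint between the MA/MyJ level and the strain median. Every other strain of the 35 had a mean of 53.7 or less. JF1/Ms (678 and 701) and MSM/Ms (468 and 915) also had high levels, and CAST/EiJ and PWD/PHJ had means of 47.6 and 45.2.

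The start regions of both genes are shown because their levels split the strains into a high and a low set. They are 300 bases each, 250 before and 50 after the annotated start, 5′ to 3′ on the gene's strand, from RefSeq on GRCm38.p6. That assembly is the sequence of C57BL/6J, which had low levels of both genes, and not of MA/MyJ. Aass lies at chr6:23132937-23133236 on the minus strand and Ryk at chr9:102834670-102834969 on the plus strand. Capitals mark matches to CCAAT, which reads ATTGG on the other strand, to GGGCGG, which reads CCGCCC there, and to TATAAA, which reads TTTATA there.
Aass: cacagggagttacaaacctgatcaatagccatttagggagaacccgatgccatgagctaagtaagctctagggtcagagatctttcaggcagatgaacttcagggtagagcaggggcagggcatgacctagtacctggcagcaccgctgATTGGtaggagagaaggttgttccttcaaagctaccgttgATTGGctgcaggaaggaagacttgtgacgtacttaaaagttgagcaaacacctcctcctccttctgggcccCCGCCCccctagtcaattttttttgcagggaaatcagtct
Ryk: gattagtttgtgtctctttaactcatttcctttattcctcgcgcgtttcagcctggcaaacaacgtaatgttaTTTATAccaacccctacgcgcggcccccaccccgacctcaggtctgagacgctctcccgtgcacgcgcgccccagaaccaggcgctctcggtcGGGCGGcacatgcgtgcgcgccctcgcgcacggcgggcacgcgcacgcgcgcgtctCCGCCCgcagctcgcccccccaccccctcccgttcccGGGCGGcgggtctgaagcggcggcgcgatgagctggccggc
The Aass region held 2 CCAAT matches, 1 GGGCGG match and no TATAAA match, and the Ryk region 0, 3 and 1 in the same order. Of 32851 such regions in the table, 37.4% held CCAAT, 35.7% GGGCGG and 13.6% TATAAA. The regions differed in CG dinucleotides, with 5 in Aass and 42 in Ryk, against a median of 7, and 2.61% of all regions held more than Ryk. These are letter matches in the reference sequence and carry no information on the MA/MyJ alleles.

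**Figure D2:**
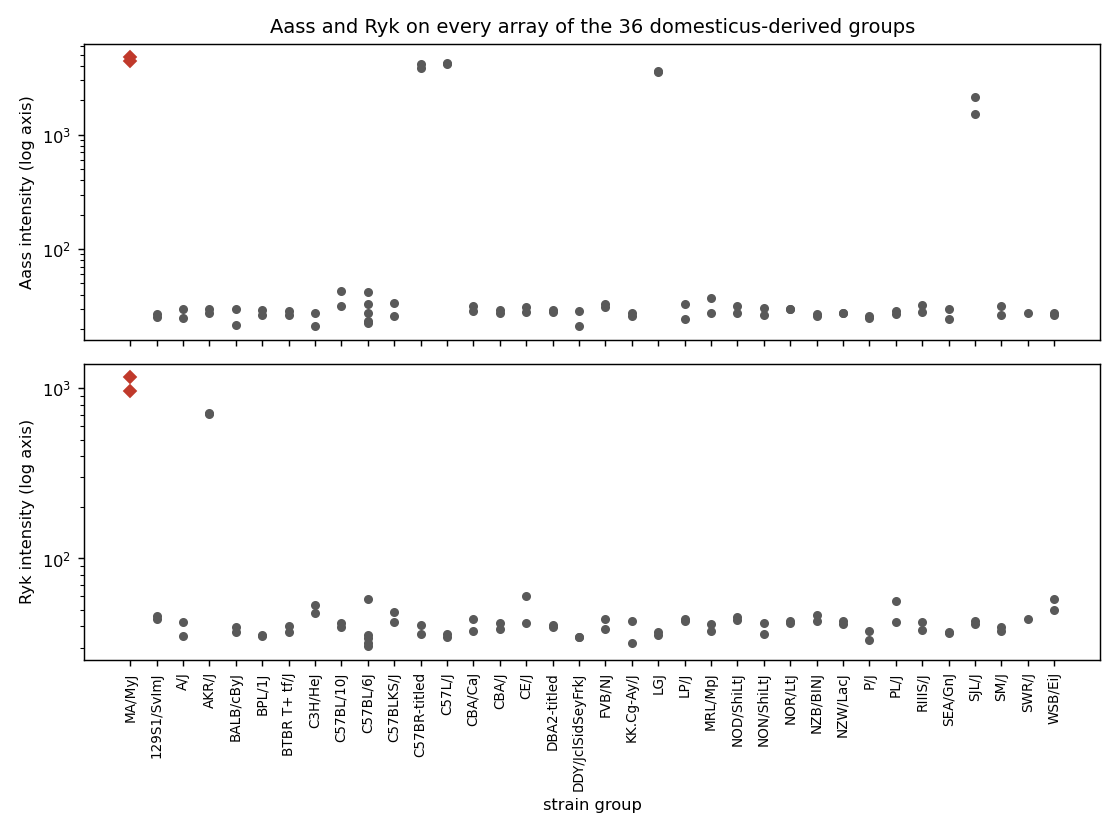
Intensity of Aass (upper panel) and Ryk (lower panel) on each array of MA/MyJ and the 35 other groups, on log axes, with MA/MyJ at the left in red. Aass reads above 1500 on both arrays of MA/MyJ, C57BR-titled, C57L/J, LGJ and SJL/J, and Ryk above 700 in MA/MyJ and AKR/J.

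Among the 17 measured genes of lysine breakdown, Aass and Hadh were higher in MA/MyJ at array level, and none was lower. Hadh, a dehydrogenase of fatty acid oxidation that also acts late in this pathway, read 1142 and 1209 in MA/MyJ, against a median of 958 and a range of 557 to 1261 in the other strains (0.35 ± 0.10, adjusted p = 0.0301). Its levels overlapped those of the other strains, and its call did not hold after quantile normalization, with a B cell covariate or with either MA/MyJ array left out, where Aass was the 1 list member that passed. The next 4 enzymes described did not pass either test. Aldh7a1, which oxidises the semialdehyde that Aass releases, read 129 and 148 in MA/MyJ, against a median of 143 in the others. Aadat, an aminotransferase of the next step, was dim everywhere, at 13.0 and 14.6 in MA/MyJ and a median of 15.4 in the others. Dhtkd1, the 2-oxoadipate dehydrogenase subunit, read 38.2 and 42.0 in MA/MyJ and a median of 44.9 in the others, and Gcdh, glutaryl-CoA dehydrogenase, read 202 and 195 against 204. The list median was 0.05, beside -0.04 over all probe sets. Of the 5 measured genes on each side of Aass in the gene order (Cped1, Wnt16, Fam3c, Ptprz1, Ing3, Fezf1, Cadps2, Rnf133, Rnf148 and Tas2r118), none passed either test, with differences from -0.19 for Rnf133 to 0.06 for Ing3.

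Besides Ryk, 9 named genes passed both tests with both MA/MyJ arrays beyond every other strain mean. Nebl, on chromosome 2, encodes nebulette, an actin-binding protein best known from the Z-disc of heart muscle. Its brighter probe set read 1015 and 1149 in MA/MyJ, against a median of 139 and a highest mean of 390 in WSB/EiJ (2.90 ± 0.48, adjusted p = 0.00215 at strain level). Its other probe set read 256 and 217 in MA/MyJ, against a median of 64.6 and a highest mean of 118 in SWR/J (1.81 ± 0.26, adjusted p = 0.000122). Both probe sets put MA/MyJ above all 35 strains. Lcn10, also on chromosome 2 and a member of the lipocalin family, read 199 and 180 in MA/MyJ, against a median of 67.1 and a highest mean of 132 in KK.Cg-Ay/J (1.46 ± 0.20, adjusted p = 0.000122). Acad11, an acyl-CoA dehydrogenase gene on chromosome 9, read 500.0 and 494 in MA/MyJ, against 195 to 388 in the others (1.01 ± 0.19, adjusted p = 0.00861). In all 3 genes MA/MyJ lay above the other strain means, as the naming rule required, with KK.Cg-Ay/J and RIIIS/J nearest for Lcn10 and Acad11.

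Smaller differences were found in 3 genes of chromosome 15 and 1 of chromosome 17. These chromosomes are those of the gene symbols, and where each probe set lies was not checked. Gpaa1, a subunit of the transamidase that attaches GPI anchors to proteins, read 820 and 888 in MA/MyJ, against 358 to 613 in the others (0.94 ± 0.18, adjusted p = 0.0116). Pdxp, a phosphatase of the vitamin B6 coenzyme, read 255 and 261 in MA/MyJ, against 125 to 185 (0.76 ± 0.14, adjusted p = 0.0116). The calls of both ended after quantile normalization (adjusted p = 0.0723 for Gpaa1 and 0.0846 for Pdxp), and a second probe set of Pdxp, at 286 and 287 in MA/MyJ against a median of 195, passed only the array-level test. Arhgap39 read 723 and 652 in MA/MyJ, against 326 to 537 (0.79 ± 0.17, adjusted p = 0.0473), and its call ended in 7 of 12 alternatives. Wdr90, a WD repeat protein gene on chromosome 17, read 167 and 169 in MA/MyJ, against 98.1 to 128 (0.61 ± 0.11, adjusted p = 0.00841). Each of these genes was above every other strain mean on both MA/MyJ arrays, which the rule for naming them required. Pter, a phosphotriesterase-related gene, also passed at strain level but was dim, at 59.9 and 54.1 in MA/MyJ and a median of 40.2 in the others, which kept it below the brightness set for named genes.

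Lower in MA/MyJ were Atl3 and Slc44a1, as read by probes that were not checked against the MA/MyJ sequence. Atl3, on chromosome 19, encodes atlastin 3, a GTPase that shapes the endoplasmic reticulum, and had the smallest strain-level p of all. It read 236 and 185 in MA/MyJ, against a lowest strain mean of 485 in PL/J, a median of 626 and a highest of 846 in BALB/cByJ (fell by 1.58 on the log2 scale, SE 0.18, adjusted p = 2.89e-06). No strain mean came within 2-fold of the lower MA/MyJ array. Slc44a1, a choline transporter gene on chromosome 4, read 204 and 184 in MA/MyJ, against 250 to 523 (-0.94 ± 0.20, adjusted p = 0.0473). Its call ended in 5 of 11 alternatives, and its second probe set passed only at array level. The remaining 2 probe sets of the 14 had no single gene symbol, 1 higher and 1 lower in MA/MyJ.

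**Figure D3:**
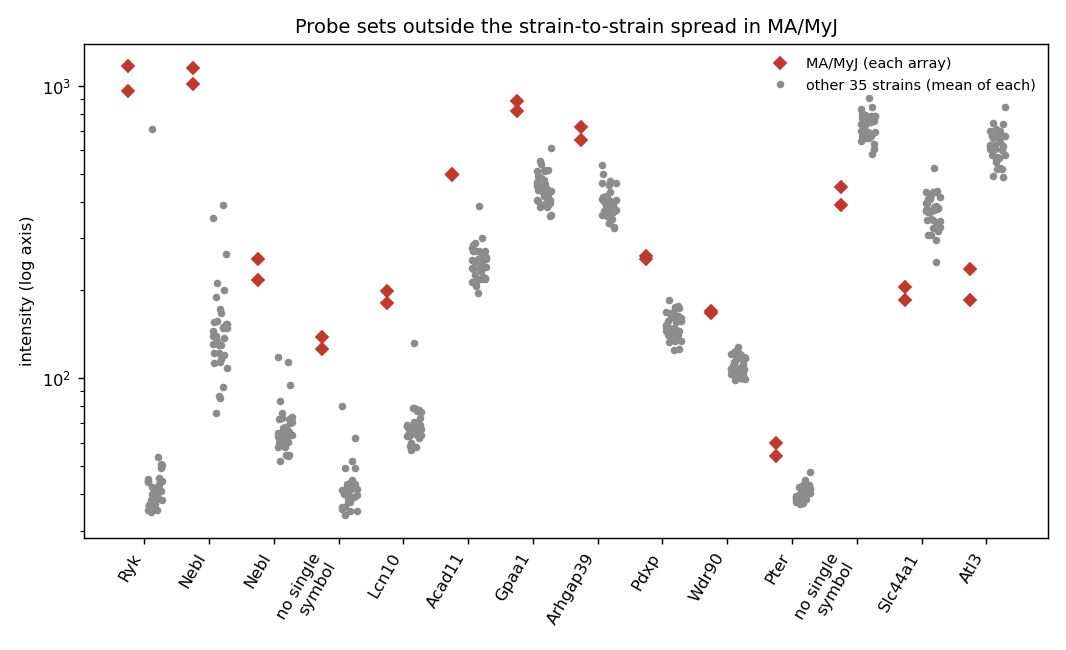
Intensity (log axis) of the 14 probe sets that passed the strain-level test, with MA/MyJ arrays as red diamonds and the means of the 35 other strains as grey points. The MA/MyJ arrays lie beyond all strain means in each column, and AKR/J is the single grey point near MA/MyJ for Ryk.

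A wider set was named after the values were seen, by taking the 15 largest differences in each direction at array level. Of these 30 genes, MA/MyJ was the highest or lowest of the 36 groups in 10. For 1 gene no other strain lay on the MA/MyJ side of the midpoint, for 10 genes 1 to 4 strains did, for 8 genes 5 to 8 strains and for 11 genes 9 or more. C57BR-titled shared the MA/MyJ side in 12 of the 30 genes, and C57BL/10J and C57L/J in 10 each. No genes of this set besides Ryk, Nebl, Lcn10 and Atl3 passed the strain-level test.

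**Figure D4:**
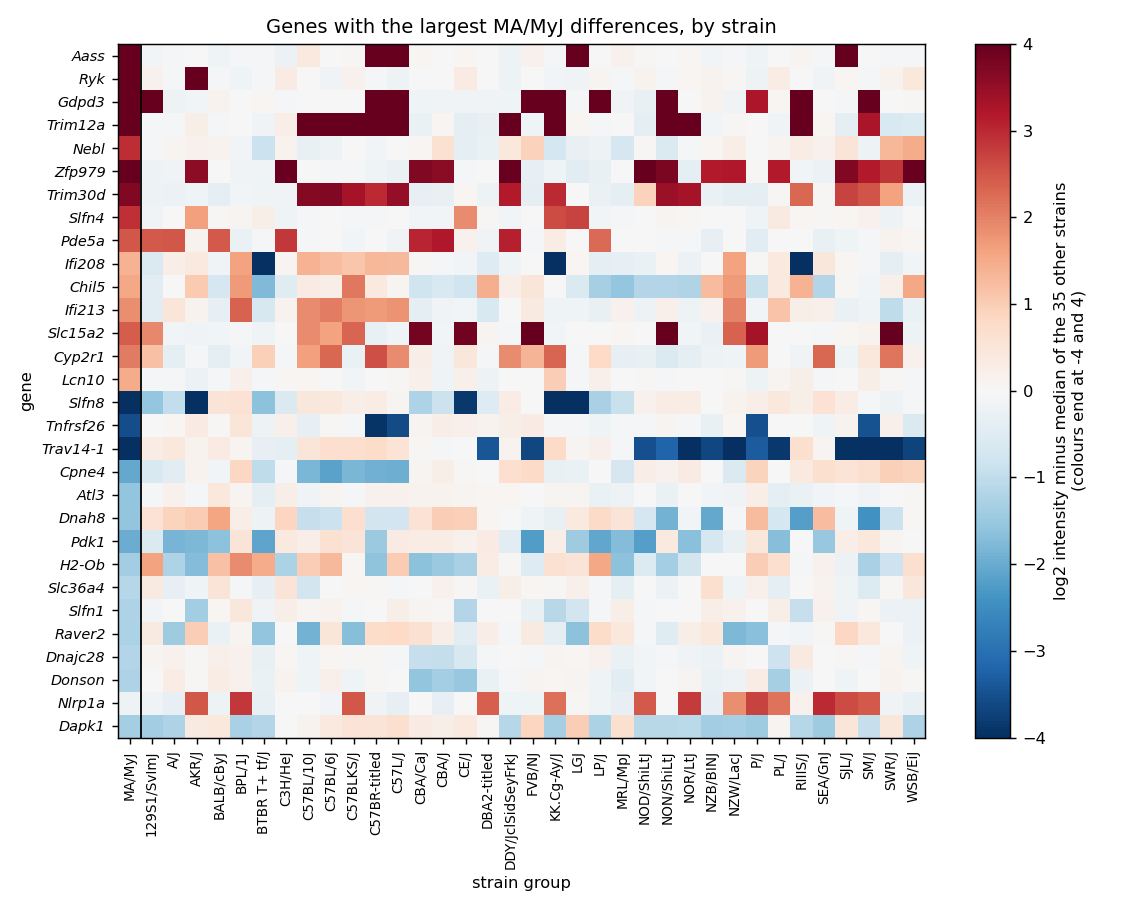
Mean log2 intensity of each of the 36 groups minus the median of the 35 other strains, for the 15 largest higher and 15 largest lower genes of MA/MyJ (left column). Rows such as Aass and Slfn8 show a few strains with the MA/MyJ level, and rows such as Zfp979 and Trav14-1 show 9 or more.

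Schlafen genes, a family on chromosome 11 that responds to interferon and is linked to growth control of T cells, differed in both directions. Slfn8 read 43.5 and 32.5 in MA/MyJ, against a median of 647 and a highest mean of 960 in BPL/1J (-3.50 ± 0.17, adjusted p = 2.60e-22 at array level). AKR/J, LGJ, KK.Cg-Ay/J and CE/J had means of 28.9 to 44.1, and MSM/Ms had 43.5. Slfn4 went the other way, at 503 and 630 in MA/MyJ, against a median of 73.8 and a highest mean of 481 in LGJ (2.68 ± 0.14, adjusted p = 9.01e-21). The strains on the MA/MyJ side were again AKR/J, CE/J, KK.Cg-Ay/J and LGJ, with means of 232 to 481. Slfn1, which lies next to Slfn4, read 1346 and 1159 in MA/MyJ, against a median of 2926 (-1.11 ± 0.09, adjusted p = 1.44e-13), and RIIIS/J joined the same 4 strains on its side. The neighbouring Slfn10-ps (148 and 145 in MA/MyJ against a median of 322) was also lower, and Slfn3 (338 and 292 against 239) was higher, while Slfn2, between Slfn10-ps and Slfn1, was not called. Which transcripts of such similar genes each probe set reads was not checked, as probe sequences were not used here.

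The tripartite motif genes Trim12a and Trim30d, of the Trim5/Trim30 cluster on chromosome 7, were higher in MA/MyJ. Trim12a read 1756 and 1490 in MA/MyJ, against a median of 50.1 and a highest mean of 1535 in C57BL/6J (3.70 ± 0.13, adjusted p = 1.82e-28). Trim30d read 433 and 314 in MA/MyJ, against a median of 28.3 and a highest mean of 368 in C57BL/6J (2.68 ± 0.16, adjusted p = 1.83e-18). MA/MyJ had the highest mean of 36 groups for both, but 11 and 12 strains lay on its side. Trim30a between them was higher by less, at 2934 and 2490 in MA/MyJ against a median of 2199 (0.32 ± 0.09). Trim12c, also between them, was not called (397 and 313 in MA/MyJ against a median of 340). Of 8 measured genes of this cluster, 4 were higher and 0 lower, and 2 were called without MA/MyJ array 1.

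Of 9 measured Ifi200 genes of chromosome 1, whose proteins bind nucleic acids in innate sensing, 3 were higher and 1 lower. Ifi208 read 1567 and 1776 in MA/MyJ, against a median of 632 (1.58 ± 0.19, adjusted p = 1.14e-08), Ifi213 read 1293 and 1330 against 363 (1.53 ± 0.18, adjusted p = 6.99e-09), and Ifi209 read 2235 and 2012 against 1356 (0.82 ± 0.19, adjusted p = 0.00291). BPL/1J, NZW/LacJ and the 5 groups named C57 lay on the MA/MyJ side for each of the 3 genes, joined by PL/J for Ifi213. Ifi207, next to them, was lower, at 29.6 and 45.5 in MA/MyJ against a median of 62.6. The list count of 4 fell to 2 without MA/MyJ array 1.

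Receptors of the tumour necrosis factor family on chromosome 7 were lower in MA/MyJ. Tnfrsf26 read 88.0 and 79.7 in MA/MyJ, against a median of 976 and a highest mean of 1376 in BPL/1J (-3.15 ± 0.09, adjusted p = 1.40e-33). C57BR-titled, C57L/J, P/J and SM/J had means of 63.9 to 88.0, and no other strain of the 35 lay on that side. Tnfrsf22 and Tnfrsf23, its neighbours and known as decoy receptors for the death ligand TRAIL, were lower by less, with Tnfrsf22 at 327 and 296 in MA/MyJ against 566, and Tnfrsf23 at 68.5 and 65.4 against 97.1. The same 4 strains lay on the MA/MyJ side of both, joined by WSB/EiJ for Tnfrsf23. Farther along, Osbpl5, an oxysterol-binding protein relative, was higher (350 and 337 in MA/MyJ against 263), and Mrgpre, a receptor gene of the Mas-related family, was lower (86.2 and 95.2 against 122).

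Genes close to each other in the gene order also differed on chromosomes 9, 16 and 11, with uncalled genes between some of them. Cpne4, a copine that binds membranes in response to calcium, read 47.9 and 61.1 in MA/MyJ, against a median of 222 (-1.88 ± 0.11, adjusted p = 1.28e-19), and the 5 groups named C57 lay on its side. The acid phosphatase gene Acpp, next to Cpne4 on the side of Acad11, read 320 and 316 in MA/MyJ against 521, and Ackr4 and Dnajc13, between Acpp and Acad11, were not called. On chromosome 16, the replication factor gene Donson (199 and 183 in MA/MyJ, median 451) and the chaperone-family gene Dnajc28 (45.4 and 42.2, median 99.1) were both lower, and CBA/CaJ, CBA/J, CE/J and PL/J lay on the MA/MyJ side of both, but Gart and Son, which lie between them, were not called. Ifnar2, 5 genes from Dnajc28 and with no called gene between, a chain of the type I interferon receptor, was higher at 1586 and 1604 in MA/MyJ against a median of 985 and a highest mean of 1500 in the others (0.68 ± 0.10, adjusted p = 8.57e-07). Close to Ryk, but with the adjacent Slco2a1 and Gm5627 not called, Srprb, a subunit of the signal recognition particle receptor, read 846 and 785 in MA/MyJ against 338 to 657 in the others, and the GTPase gene Rab6b read 79.7 and 82.1 against a median of 98.1. The inflammasome sensor genes Nlrp1a and Nlrp1b were lower, but both were dim in MA/MyJ (27.7 and 29.7, and 42.2 and 43.3), and the median of other strains for Nlrp1a was 33.3. Over 19700 genes in order, 20.8% of the 1250 genes called at array level had a called gene next to them, against 11.5% of the genes not called. Of 309 neighbours of named genes, 27 (8.74%) were called, beside 6.35% of all genes in the order.

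Single genes of metabolism and transport made up much of the rest of this set, and most had an MA/MyJ level seen in many strains. Gdpd3, which cleaves lysophospholipids, read 2867 and 3247 in MA/MyJ, against a median of 77.3, but ranked 8 of 36, with 6380 in RIIIS/J. Pde5a, the cyclic GMP phosphodiesterase, read 320 and 244 in MA/MyJ against a median of 49.9, and 8 strains lay on its side. Slc15a2, a peptide transporter, read 149 and 219 against 33.8, and Cyp2r1, a vitamin D hydroxylase, read 152 and 121 against 32.3, each with 11 strains on the MA/MyJ side. The call for Slc15a2 ended without MA/MyJ array 2 (adjusted p = 0.0571). Lower were Pdk1, a kinase that restrains pyruvate dehydrogenase (221 and 253 in MA/MyJ, median 939, 13 strains on its side), and Slc36a4, an amino acid transporter (132 and 102 in MA/MyJ, median 258). For Slc36a4 MA/MyJ was the lowest of 36 and C57BL/10J the only strain on its side. The zinc finger gene Zfp979 and the chitinase-like gene Chil5 were higher, with 14 and 8 strains on the MA/MyJ side. Dnah8, a dynein heavy chain, Raver2, an RNA-binding protein, and Dapk1, a kinase linked to cell death, were lower with 7, 7 and 17. Trav14-1, a variable segment of the T cell receptor alpha chain, was lower in 1 probe set (44.6 and 33.4 in MA/MyJ, median 738), with 13 strains on the MA/MyJ side. In its other probe set the values were 430 and 468 in MA/MyJ and a median of 470.

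Described by gene list, 87 of 556 distinct list entries passed the array-level test in MA/MyJ, and none passed at strain level. An unadjusted strain-level limma p under 0.05 was held by 39 of the 556, beside 2555 of 24922 over all probe sets. In the array-level test, the share of all probe sets called was 4.56% higher and 1.78% lower. Differences leaned with brightness, since the median difference was -0.14 in the second-dimmest quartile of probe sets and 0.11 in the brightest, where 7.59% were called higher and 1.69% lower. After quantile normalization these medians were -0.03 and 0.01. The part of this lean in the lists below was not tested.

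Type I interferon response genes had the most higher members, with 12 of 33 higher and 0 lower and a list median of 0.21. Usp18, which removes ISG15 and dampens the receptor, read 1087 and 953 in MA/MyJ, against a median of 649 and a highest mean of 1517 in the others (0.82 ± 0.14, adjusted p = 3.79e-05). Oas2, a sensor of double-stranded RNA, read 759 and 614 against 355 (0.87 ± 0.17, adjusted p = 0.000383), and Oasl2 read 465 and 339 against 260 (0.88 ± 0.14, adjusted p = 5.01e-06). Samd9l, an antiviral translation inhibitor, read 1483 and 1577 against 1152. None of these 4 exceeded the highest strain, and the list mean of 8.90 and 8.79 in MA/MyJ lay inside the range of 7.80 to 9.03 of the others. Of this list 19 genes were in the brightest quartile. The count was 6 higher and 1 lower after quantile normalization, 2 without MA/MyJ array 1 and 5 without MA/MyJ array 2. Guanylate-binding and immunity-related GTPases, which respond to interferon gamma, had 1 of 9 higher (Gbp8) and 3 lower (Gbp3, Iigp1 and Gbp2b), and 2 were called with either MA/MyJ array left out.

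Cell cycle genes had 9 of 34 higher and 0 lower, with a list median of 0.24. Mki67, a proliferation marker, read 193 and 159 in MA/MyJ, against a median of 99.6 (0.70 ± 0.18, adjusted p = 0.0114), Top2a, the mitotic topoisomerase, read 165 and 151 against 90.7 (0.78 ± 0.18, adjusted p = 0.00309), and Pttg1, securin, read 342 and 304 against 216 (0.73 ± 0.09, adjusted p = 2.07e-08). Each lay below the highest of the other strains. The list count was 1 without MA/MyJ array 1 and 4 without MA/MyJ array 2. Oxidative phosphorylation genes had 7 of 48 higher and 0 lower, such as Ndufa2 of complex I (846 and 827 in MA/MyJ, median 563) and Atp5e of the ATP synthase (678 and 688, median 434). Here 41 genes lay in the brightest quartile, and the count was 1 higher and 1 lower after quantile normalization and 0 with either MA/MyJ array left out. Of 39 ribosomal protein genes, 1 was called: Rpl7a, at 2205 and 2416 in MA/MyJ, was lower than in all 35 strains, whose means were 2726 to 4165 (-0.56 ± 0.09, adjusted p = 4.83e-06).

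T cell genes showed a few moderate differences. Of 34 T cell receptor complex and signalling genes, 5 were higher and 0 lower. Cd5, an inhibitory co-receptor set by signal strength in the thymus, read 4782 and 4664 in MA/MyJ, against 2825 to 4429 in the others (0.34 ± 0.06, adjusted p = 0.000159), Ptpn6, the phosphatase SHP-1, read 1354 and 1310 against 792 to 1258 (0.40 ± 0.07, adjusted p = 8.1e-05), and Cd3g read 8172 and 7998 against 3357 to 8021. For Cd5 and Ptpn6, MA/MyJ lay above every other strain mean on both arrays. The list count was 1 without MA/MyJ array 1 and 3 after quantile normalization. Of 34 genes of activated or memory T cells, 6 were higher and 1 lower. Without MA/MyJ array 1 the count was 2, and without array 2 it was 3. Icos, a costimulator of helper T cells, read 1456 and 1333 in MA/MyJ, against 359 to 1314 (0.82 ± 0.11, adjusted p = 1.96e-07), and Crip1 was the lower one. Of 18 regulatory T cell genes, 4 were higher, among them Tnfrsf18, the receptor GITR, at 1516 and 1531 in MA/MyJ against 624 to 1480 (0.68 ± 0.10, adjusted p = 1.02e-06), and Lrrc32 was lower, and 2 were called with either MA/MyJ array left out. Of 22 naive T cell genes, Cd5 was higher and Dapl1 lower (4104 on both MA/MyJ arrays, median 5806), and 1 was called without MA/MyJ array 1. Of 27 cytokine receptors, Ifnar2 and Il6st were higher, and Tgfbr2 and Il12rb1 lower. Il12rb1, a chain of the interleukin 12 receptor, read 150 and 145 in MA/MyJ, below all strain means of 164 to 268 (-0.44 ± 0.11, adjusted p = 0.00527). The receptor count of 4 was 2 without MA/MyJ array 1 and 1 without array 2.

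Among metabolic and stress lists, 1 of 16 amino acid transporters was higher, beside 4.56% of all probe sets and 7.59% of the brightest quartile. The higher one was Slc1a5, the glutamine carrier, at 1397 and 1510 in MA/MyJ against a median of 828 and a highest mean of 1445 (0.81 ± 0.10, adjusted p = 8.79e-08). Of this list 9 genes were in the brightest quartile. Of 26 glutathione and xenobiotic metabolism genes, 4 were higher, such as Gstk1 (733 and 829 in MA/MyJ, highest other mean 682), and 3 lower, such as Gstm1 (52.7 and 55.2, lowest other mean 58.0), and 3 in all were called with either MA/MyJ array left out. Of 33 immediate early and stress genes, 5 were higher and 0 lower. The chaperone genes Hsph1 (1447 and 750 on the MA/MyJ arrays, median 410) and Hsp90aa1 (2983 and 2042, median 1323) read higher on MA/MyJ array 1 than on array 2, and 2 genes of the list were called without array 1. Of 22 chemokine receptors and integrins, Ccr4, a homing receptor, was higher. Of 8 Gimap genes, Gimap3 was higher, and of 16 class I and processing genes, H2-Q4. The chemokine receptor, Gimap and class I lists thus had 1 call each, beside the same shares of all probe sets and of the brightest quartile. Without MA/MyJ array 1 the calls of the Gimap and class I lists ended, and without array 2 those of the chemokine receptor and Gimap lists.

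Class II genes of antigen presentation, which mark B cells and myeloid cells in mouse, had 0 of 10 higher and 2 lower, and all 10 differences were negative. H2-Ob, a chain of the H2-O inhibitor of peptide loading, read 150 and 87.6 in MA/MyJ, against a median of 299 and a range of 89.1 to 1119 (-1.32 ± 0.17, adjusted p = 9.23e-08). The MA/MyJ mean of H2-Ob ranked 31 from the top, and 12 other strains lay on the MA/MyJ side. H2-DMa, of the loading complex H2-M, read 178 and 181 against 266, and 1 list member was called with either MA/MyJ array left out. In bulk samples fewer cells of a type and less RNA per cell cannot be told apart. Beside this, all 17 B cell markers and all 20 myeloid markers had negative differences (medians -0.24 and -0.21, or -0.13 and -0.10 after quantile normalization), and 1 of them, the myeloid Fc receptor gene Fcgr3, passed the array-level test, but not with either MA/MyJ array left out. The defining markers Ms4a1 (23.7 and 19.6 in MA/MyJ) and Csf1r (45.8 and 55.6) were under the median intensity of all arrays. So was the B cell marker Cd79a (37.6 and 52.2), but Cd79b (126 and 136) was above it. The MA/MyJ means of Cd79a and Cd79b ranked 15 and 14 from the top, above the strain medians of 43.0 and 128. Their differences of -0.04 and -0.06 were taken from strain means that reached 122 and 402. Ms4a1 ranked 32, and the B cell list mean of MA/MyJ lay below those of all 35 strains. The part of B cells and myeloid cells in the class II values was not tested. Of 22 killer cell lectin-like genes, 3 were higher and 1 lower, with Klrd1 at 308 and 270 in MA/MyJ against a median of 190, and Klrd1 was also the 1 called gene of the 8 CD8 T cell markers. The lectin-like count of 4 was 0 without MA/MyJ array 1, 1 without array 2 and 2 without the dimmest 40 percent of probe sets, and the CD8 count was 0 without array 1.

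**Figure D5:**
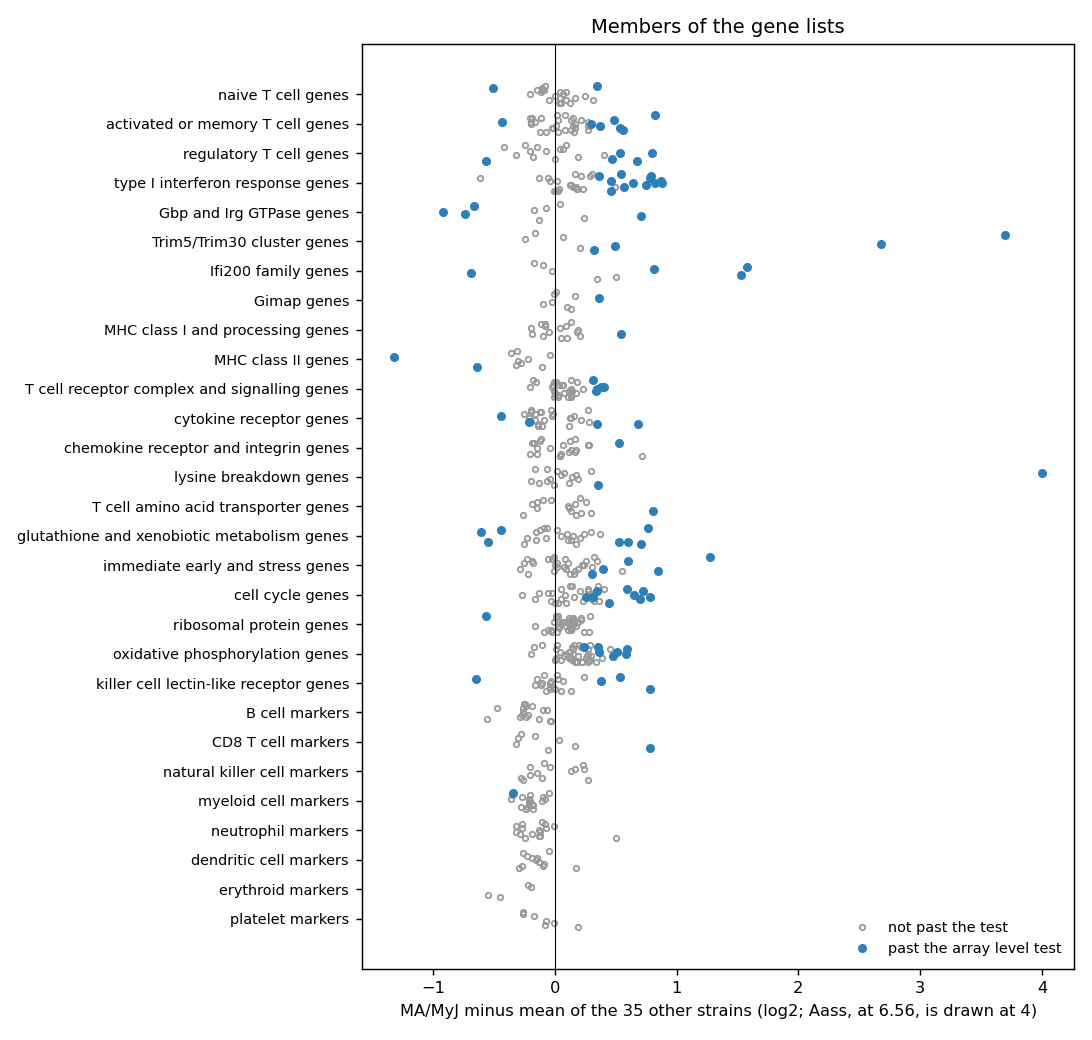
Difference of MA/MyJ from the mean of the 35 other strains (log2, horizontal) for every measured member of 29 gene lists, with filled points for members past the array-level test. Interferon, cell cycle and oxidative phosphorylation genes have filled points only to the right of 0, and class II and B cell genes lie to the left.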

How the data were processed

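The series holds Affymetrix ST1.0 arrays of sorted naive CD4 T cells. The deposited table gives 1 linear intensity per probe set and array, made by the authors with RMA and Affymetrix Power Tools per the submitters' processing notes. Versions, genome build and probe filters are not given in the sources used here. Log2 intensities, unfiltered and not normalized again, entered limma 3.58.1 (R 4.3.3). The strain-level fit used 36 strain means (34 residual degrees of freedom, prior 3.97), and the array-level fit 1 coefficient per group over all 82 arrays (42, prior 8.09), contrasting MA/MyJ with the equally weighted mean of 35 groups. P-values, after Benjamini-Hochberg adjustment, measure only the spread between these pools or strains. The number of arrays limits the precision.

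Symbols came from the platform annotation (21425 probe sets with 1 symbol, 1399 with several, 2098 with none), updated through gene IDs for 21347. In lists, the brightest probe set stood for a gene, and order along chromosomes came from GRCm38.p6. Named genes had 1 symbol, an established name, at least 1 strain mean brighter than the overall median, passed both tests and had both MA/MyJ arrays beyond every other strain mean. The largest were kept, 1 probe set per symbol, together with up to 4 strain-level list members, the lysine breakdown list and the neighbours of Aass. The rule by array level alone was added after values were seen. Members and lists were chosen with earlier results of these data known. Both fits were run on simulated data, where false calls were counted for the strain-level fit only. The alternatives were quantile normalization, median centring, leaving out the dimmest 40 percent, 1 probe set per symbol, a trended robust prior, an offset of 32, a B cell covariate, a replicate block, leaving out the groups named by title, WSB/EiJ or the PL/J and A/J arrays, averaging related strains, a 2-fold minimum, the most significant probe set in lists, and leaving out each array.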

Additional observations from a re-analysis of the deposited data

Results flagged for a closer look

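The strains of other subspecies lay outside the comparison, and for 9 of the 10 genes named by both tests at least 1 of them had a mean beyond the range of the 35 strains on the MA/MyJ side. For the dimmer probe set of Nebl this was JF1/Ms at an intensity of 364, MSM/Ms at 289 and PWD/PHJ at 247 (the 35 strains 52.1 to 118), and for the brighter one JF1/Ms at 1654, MSM/Ms at 1309, PWD/PHJ at 1151 and CAST/EiJ at 519 (highest of the 35 at 390). For Lcn10 it was PWD/PHJ at 309 (56.9 to 132), and for Acad11 JF1/Ms and MSM/Ms at 418 each (195 to 388). Gpaa1 stood at 738 in JF1/Ms and 711 in MSM/Ms (358 to 613), and Arhgap39 at 558 in JF1/Ms and 717 in MSM/Ms (326 to 537). Pdxp stood at 225 in JF1/Ms, 219 in MSM/Ms and 237 in PWD/PHJ (125 to 185), and Wdr90 at 133 in CAST/EiJ (98.1 to 128). On the lower side, Atl3 stood at 472 in CAST/EiJ (485 to 846), and Slc44a1 at 159 in JF1/Ms and 133 in MSM/Ms (250 to 523). These differences were not tested. How often any of these 4 strains lies beyond that range over all probe sets was not counted. The 9 of 10 therefore has no background share beside it.

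The C57BL/6J group held 5 arrays, and replicate 5 stood apart from the other 4 in Ryk (57.5, nearest other array 35.5) and in Pde5a (58.0, nearest 48.2). Of 37 genes looked at in this way these were 2, and chance alone marks about 1 in 20. Both values are dim beside the MA/MyJ levels.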

How the results depend on the processing

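No direction reversed under any alternative run on the 10 genes named by both tests and the 30 genes with the largest array-level differences. At strain level, the main count of 14 became 22 with median centring, 9 without the dimmest 40 percent, 8 with 1 probe set per symbol, 7 with a 2-fold minimum and 1581 with the array as the unit. Leaving out each of 74 arrays gave 12 (without A/J array 2) to 1207 (without MA/MyJ array 2) at strain level, 297 (without MA/MyJ array 1) to 1897 (without A/J array 2) at array level, and 27 (without MA/MyJ array 1) to 96 (without A/J array 2) list entries past the test, of 87. The cause was not tested, and a count with 1 MA/MyJ array takes that array to vary like the others. Other alternatives gave 1097 to 1923 at array level and 71 to 99 list entries. Calls ended for Gpaa1 and Pdxp (quantile normalization), Arhgap39 (7 alternatives and 19 of 74 left-out arrays, adjusted p up to 0.14) and Slc44a1 (5 and 20, up to 0.138).

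Replicate numbers were not treated as pairs in the main fits. Over 33 groups with arrays 1 and 2, the deviations of MA/MyJ were correlated with those of each other group. These correlations ran from -0.403 to 0.458 (median 0.00182, 14 above 0.1). Whether part of the groups shared a pairing cannot be told from these values. With the replicate number as a block, 13 probe sets passed at strain level and 1829 at array level. The block ended the calls of Arhgap39 and Slc44a1.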
